A study of Sus scrofa with 2 samples.

Results

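The genes examined here encode 5 receptors through which pituitary hormones and progesterone reach ovarian cells at the plasma membrane or at other cell membranes: FSHR, LHCGR, PRLR, GHR and PGRMC1. They were taken by name, with earlier results of these data known. Their probes were found by the RefSeq transcript accession that the array gives each probe, in the pig annotation Sscrofa11.1. All 5 were found, out of 2363 genes that could be named in this way and had a value, and they were covered by 9 probes, 1 for FSHR, 2 for LHCGR, 1 for PRLR, 2 for GHR and 3 for PGRMC1. All 9 probes were printed once per array and were well above background on both arrays, so no member was lost to the filter on dim probes.

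The series compared ovarian tissue of conventional pigs and of miniature pigs, each on 1 single-colour Agilent porcine array. The conventional pigs were Yorkshire sows and the minipigs were Midget pigs. The labels call the arrays minipig and pig, and these names are used for them here. All animals were females of 10 months with at least 3 completed cycles, and no treatment or transgene is named. Ovaries were collected at day 15 after estrus, as the corpora lutea regressed, and the luteal tissue was cut away before RNA was extracted. There were 5 animals per breed by the methods, and pooling of their RNA is neither stated nor denied in the sources used here. With 1 array per breed there is no replicate and no test, and every difference describes these 2 arrays.

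FSH and LH, the pituitary gonadotropins, act on a pair of closely related receptors that signal through the stimulatory G protein, cyclic AMP and protein kinase A. FSHR is made by granulosa cells and drives follicle growth and aromatase. LHCGR is made by theca cells, by granulosa cells of follicles near ovulation and by luteal cells, and drives androgen and progesterone synthesis. PRLR and GHR are cytokine receptors that signal through JAK2 and STAT5, and prolactin acts on the corpus luteum in many mammals. PGRMC1 is a heme-binding membrane protein that takes part in rapid progesterone responses and in sterol metabolism, and unlike the other 4 it is not itself a classical hormone receptor. In the annotation FSHR and LHCGR are direct neighbours, with 0 protein-coding genes between them.

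Of the 5 genes, FSHR was far higher on the minipig array and PGRMC1 was over 4-fold higher on the pig array. LHCGR was slightly higher on the minipig array, PRLR was so by a barely measurable amount, and GHR was level. Levels are log2 intensities after the 75th percentile of each array was set to zero, and each log2 difference is the level on the pig array minus that on the minipig array, by the labels of the scanner files. A table of log2 values that was also deposited attaches the breeds in the opposite order. What it calls minipig is the log2 scanner intensity of the pig array less a constant, to within 7.46e-07 over the 5613 probes printed once. The array files alone do not settle which is right, so each direction given here is exchanged under the labels of that table. Toward the minipig array 1 member passed 2-fold, against 7.96% of all named genes, and toward the pig array 1 did, against 11.7%. For single probes these backgrounds were 8.94% and 7.48%.

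FSHR, the follicle-stimulating hormone receptor, had a processed intensity of 456 ± 45.6 in the minipig and 38.1 ± 4.54 in the conventional pig, where the errors are those that Feature Extraction estimates for a single spot. The spot on the minipig array was thus far brighter, and the intervals were well apart. Before any correction the spot's median signal was 595 against a local background of 18 in the minipig, and 77 against 18.5 in the conventional pig. On the scaled log2 axis its levels were -0.12 ± 0.14 and -3.75 ± 0.17, which gave a log2 difference of -3.63 ± 0.22, or 12.4-fold. This is 14.3 times the SD of 0.25 that repeated spots of a probe gave for such a difference, which says nothing of the variation between animals. In all, 38883 probes had a measured difference or, where dim on 1 array, a bound. Counting FSHR itself, 71 (0.183%) of them lay as far or further toward the minipig array, and 13 of the named genes did (0.550%). The conventional pig intensity was still 3.30 times the lowest intensity well above background on that array and 13.3 times the median of its 153 negative control spots, so FSHR was detected on both arrays. The gene rests on 1 probe, and no second probe was there to set against it.

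**Figure D1:**
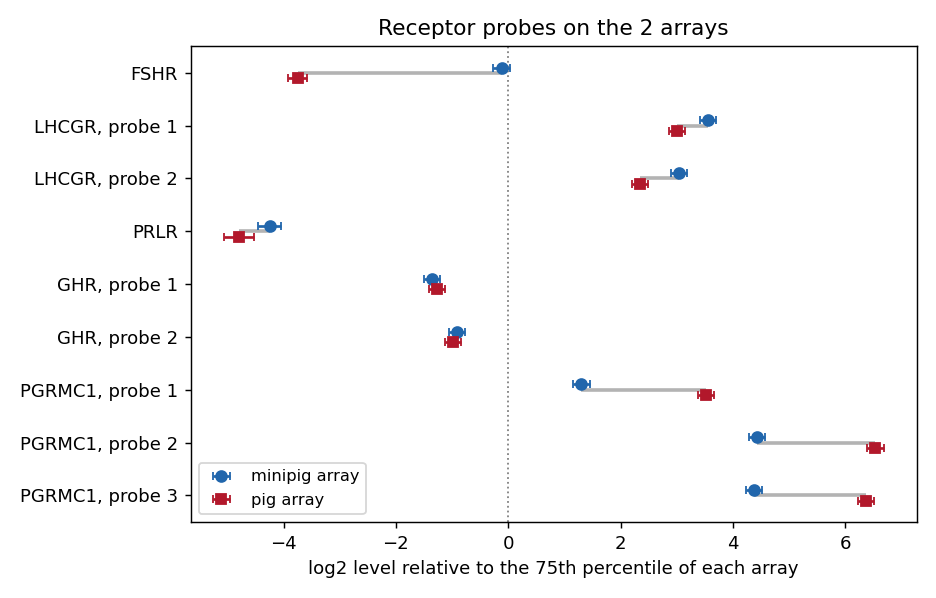
Log2 level of each receptor probe on the minipig array (circles) and on the pig array (squares), relative to the 75th percentile of each array, with the error that Feature Extraction gives for a single spot. The FSHR pair is widest apart, at -0.12 and -3.75, the 3 PGRMC1 pairs run the other way, and the GHR pairs overlap.

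LHCGR, the receptor for luteinizing hormone and choriogonadotropin, was bright on both arrays. Its first probe read 5799 ± 580 on the minipig array and 4125 ± 413 on the pig array. Its second probe read 4082 ± 408 and 2603 ± 260 in the same order. Both were therefore higher on the minipig array, by less than 2-fold. The log2 differences were -0.54 ± 0.20 and -0.70 ± 0.20, which are 2.14 and 2.76 times the SD between repeated spots. The 2 probes differed from each other by 0.16, less than that SD, and their median was -0.62, or 1.54-fold. Of all probes, 23.4% lay as far toward the minipig array as the first of them and 16.6% as far as the second. A shift of this size was therefore common on these arrays. Set side by side, the gonadotropin receptors both had a negative difference, and that of FSHR was 3.01 log2 units larger.

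PRLR, the prolactin receptor, was near the lower end of what the arrays measured. Its probe read 26.0 ± 3.66 on the minipig array and 18.5 ± 3.48 on the pig array. Both were close to the lowest intensity well above background, 10.6 in the minipig and 11.5 in the conventional pig, and on the pig array 3 of the 153 negative control spots were as bright or brighter, against 0 in the minipig. The log2 difference was -0.55 ± 0.34, which is 1.61 times its own error and 2.16 times the SD between repeated spots. By its own error, a difference between the 2 spots was barely measurable. The annotation lists 1 transcript for the gene, and whether the probe reads every isoform of the receptor was not tested.

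GHR, the growth hormone receptor, showed no difference beyond the error of a spot. One probe read 193 ± 19.5 on the minipig array and 213 ± 21.5 on the pig array, and the other 263 ± 26.5 and 259 ± 26.1. The log2 differences were 0.09 ± 0.21 and -0.07 ± 0.21, of opposite sign, with a median of 0.01. They were 0.35 and 0.29 times the SD between repeated spots, so any difference of GHR smaller than the spot error could not be resolved here.

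PGRMC1 was measured by 3 probes, all of which lay on the same side. The first read 1222 ± 122 on the minipig array and 5865 ± 587 on the pig array. The second read 10607 ± 1061 and 47675 ± 4768, and the third 10302 ± 1030 and 42435 ± 4243. All 3 were thus brighter on the pig array, although the probes differed in brightness, and none was saturated. The log2 differences were 2.21, 2.12 and 1.99, each with an error of 0.20, and their median of 2.12 corresponds to 4.33-fold. The range over the probes was 0.22, a little above the error of each difference and below the SD of 0.25 between repeated spots. Of all probes, 1.11%, 1.30% and 1.54% lay as far or further toward the pig array, and 67 of the named genes did (2.84%), each count including PGRMC1. FSHR and PGRMC1 are also the members that the deposited log2 table lists, with all 4 of their probes, while it lists none of LHCGR, PRLR and GHR. In that table FSHR stands at -3.75 in the minipig column and -0.11 in the conventional pig column, which shows the exchange of the breeds for the receptor itself.

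**Figure D2:**
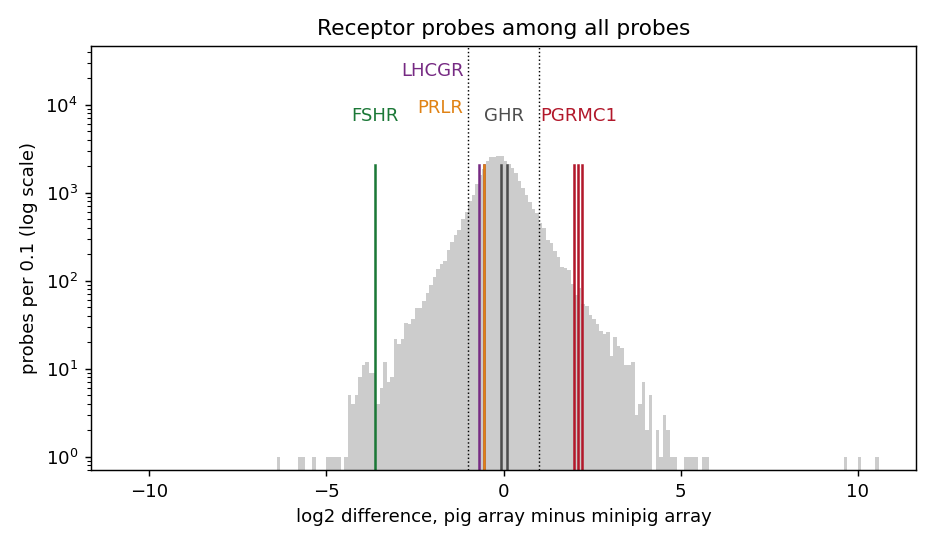
Log2 differences of all probes with a difference or a bound (grey, number of probes per 0.1 on a log scale), with the receptor probes as vertical lines and 2-fold as dotted lines. FSHR, at -3.63, and PGRMC1, at 1.99 to 2.21, lie in the tails, and the other 3 receptors lie within 2-fold.

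The place of the spots on the slide was looked at because 2 of the genes rest on 1 spot per array. The spots within 10 rows and 10 columns of the FSHR spot, 377 of them, had a median log2 difference of -0.15, and those around the PRLR spot 0.03. Around the PGRMC1 spots the medians were -0.20, -0.21 and -0.24, of the opposite sign to the gene's own difference. Around the LHCGR spots they were -0.02 and 0.16, and around the GHR spots -0.27 and -0.09. After subtraction of these medians the differences of FSHR and PGRMC1 were -3.48 and 2.33. Those of LHCGR, PRLR and GHR were -0.69, -0.57 and 0.19, the last being the highest GHR value under any processing.

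The nearest downstream genes of the gonadotropin receptors, those of G protein, cyclic AMP and protein kinase A signalling, divided evenly between the arrays. Of 56 genes listed, 14 could be named on the array and had a value, and the values speak for these 14 alone. Their median log2 difference was -0.03, against 0.04 over all named genes, with 7 higher on each array. Past 2-fold in either direction were 14.3% of them, not far from the 19.7% of all named genes. GNAS, which encodes the stimulatory G protein subunit that both gonadotropin receptors use, was at 0.00 as the median of 15 probes, all well above background on both arrays, while a 16th had no value. PRKAR1A, a regulatory subunit of protein kinase A, was at 0.01 and APPL1, an adaptor that binds FSHR, at 0.02. Among listed genes with every probe well above background on both arrays, these were the nearest to GHR in log2 difference. Past 2-fold were PDE4B (-1.71, 3 probes from -1.84 to -0.49), a phosphodiesterase that breaks down cyclic AMP, and PKIG (2.09, 1 probe), an inhibitor of protein kinase A.

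Genes listed as gonadotropin-responsive in the follicle divided between the arrays. Like the other gene lists here, it was made by name with earlier results of these data known. Its share past 2-fold is therefore not independent of these arrays. Whether each gene responds to gonadotropins in these ovaries was not tested. Of 32 genes listed, 24 had a value, and 10 passed 2-fold toward the minipig array and 6 toward the pig array. In all, 66.7% were past 2-fold in either direction, against 19.7% of all named genes, while the median was only -0.22. Higher on the minipig array were CYP19A2 (-4.22, 1 probe) and CYP19A3 (-4.11), members of the porcine aromatase family, and INSL3 (-3.76, 1 probe), a peptide hormone of theca cells. The aromatase genes are close paralogs and their probes may share transcripts, so their single values are uncertain. CYP19A1, by contrast, was at 0.09 from 2 probes at -0.34 and 0.52. Higher on the pig array were TNFAIP6 (3.22), a matrix protein of the ovulatory follicle, HSD3B1 (3.11), which makes progesterone from pregnenolone, and STAR (3.07), which carries cholesterol into mitochondria. Among listed genes with every probe well above background on both arrays, INSL3 and CYP19A3 were nearest to FSHR in log2 difference. They were 0.13 and 0.48 away.

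The marker lists for the cells that carry these receptors differed as well. The granulosa, theca and luteal lists share genes with the gonadotropin-responsive list, among them INHA, INSL3 and STAR. They are therefore in part the same values and not a separate observation. The marker lists, too, were drawn up with earlier results of these data known. Of 14 granulosa markers other than FSHR, 8 had a value, all with every probe well above background on both arrays, and their median log2 difference was -1.08, with 7 of 8 higher on the minipig array and 6 past 2-fold there, against 7.96% of all named genes. They ran from HSD17B1 at -2.96 and INHA at -2.61 to FST at -0.08 and CYP19A1 at 0.09. AMH (-1.03, 4 probes from -2.22 to -0.09), SERPINE2 (-1.03) and GATA4 (-1.13, 1 probe) were only just past 2-fold. The 2 probes of INHBA lay on opposite sides, at -3.91 and 0.37. The summed intensity of the 8 markers, in multiples of the 75th percentile, was 309 in the minipig and 153 in the conventional pig. These sums follow the brightest probes of the list. Of 7 theca markers only INSL3 and CYP17A1 (-1.74) had a value. Of 12 luteal and steroidogenic markers, 10 had a value and all 10 were higher on the pig array, 6 of them past 2-fold against a background of 11.7%, with a median of 2.47, so they lay on the same side as PGRMC1 and on the other side from LHCGR. They ran from SCP2 at 4.52 (1 probe) to HSD11B1 at 0.18, with OXT (0.33), RLN2 (0.45) and FDX1 (0.63) also under 2-fold. The summed intensities of the 10 were 621 on the minipig array and 2312 on the pig array. Of 12 oocyte markers 7 had a value and each of the 7 lay on the minipig side, 4 past 2-fold against a background of 7.96%, with a median of -1.33. Fewer cells of a type and less RNA per cell cannot be told apart in such tissue, and the part of the tissue's makeup in the receptor differences was not tested. The remaining cell types were thinly covered, with medians of 0.68 for 4 of 11 endothelial, -0.76 for 4 of 8 smooth muscle and 0.25 for 6 of 10 leukocyte markers, and with only DCN (-0.36) for stromal fibroblasts and KRT8 (-0.28) for surface epithelium. Genes of other organs were on the arrays as well, 5 of 10 liver genes with a median of 0.13. Of 6 genes of salivary gland and exocrine pancreas 5 had a value, and all 5 lay on the same side as FSHR. SAL1 (-4.58) and AMY2 (-3.95) were past 2-fold, CPA1 (-0.96), PNLIP (-0.31) and CPB1 (-0.16) were not, and their part was not tested either.

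**Figure D3:**
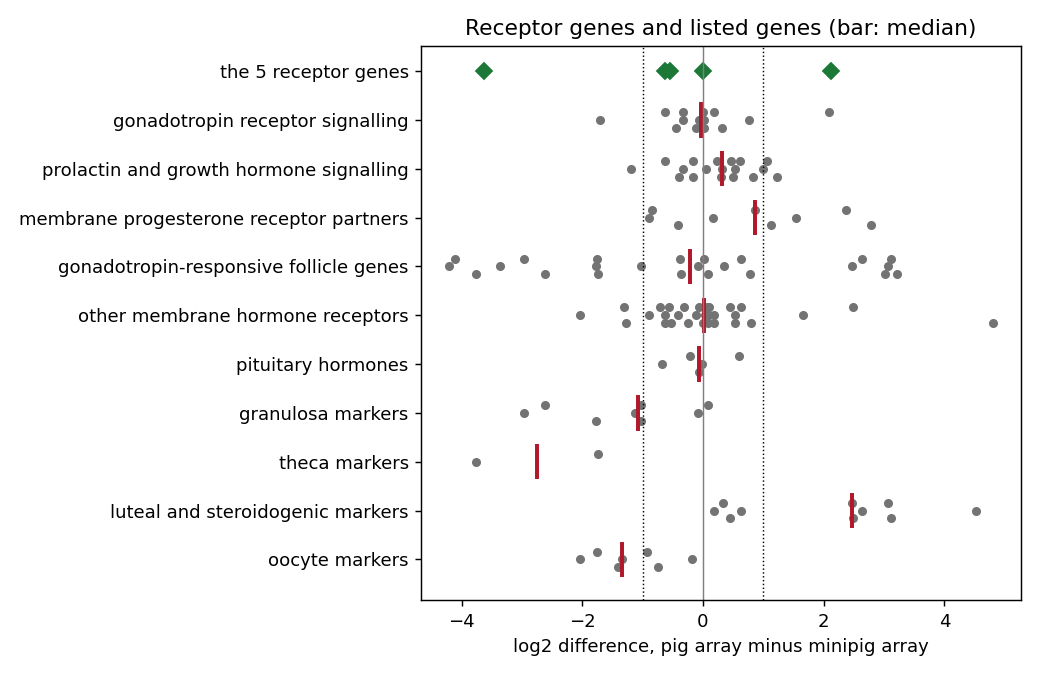
Log2 difference of the 5 receptor genes (diamonds), of each gene of the pathway lists and of 4 marker lists (points, 1 per gene, spread vertically only for legibility) and the median of each list (bar), with 2-fold as dotted lines. Genes of gonadotropin receptor signalling centre on -0.03, granulosa markers on -1.08 and luteal and steroidogenic markers on 2.47.

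Downstream of the prolactin and growth hormone receptors, 18 of 42 listed genes had a value, with a median log2 difference of 0.31, and 12 lay on the side of the pig array. Past 2-fold on that array was STAT5B (1.23, probes at 0.77 and 1.68), a transcription factor that both receptors activate. FYN (1.07, 1 probe), a Src family kinase, passed it as well. So did JAK2, the kinase bound to both receptors, whose probes at 0.80 and 1.20 put it just at 2-fold. The receptors themselves were at -0.55 for PRLR and 0.01 for GHR. STAT5A was at 0.05, with probes at -0.16 and 0.26. SOCS2, a feedback inhibitor of growth hormone signalling, was the only one past 2-fold on the minipig array, at -1.19 with both probes alike. IGF1, a target of growth hormone, was at -0.40. The background beside these counts, 3 and 1 of 18, is 11.7% and 7.96% of all named genes.

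Partners and relatives of PGRMC1 were mostly higher on the pig array. Of 22 genes listed, 9 had a value, all of them on probes well above background on both arrays, with a median log2 difference of 0.86. Past 2-fold toward the pig array were 4 of the 9, against a background of 11.7%, and toward the minipig array 0, against 7.96%. CYP51 (2.78), the sterol demethylase that PGRMC1 binds, had 4 probes from 2.71 to 3.17. CYB5A (2.36), a cytochrome b5 of the same heme-binding fold family, had 6 probes from 2.06 to 2.63, and CYB5B was at 1.54. PAQR7, a membrane progesterone receptor of another family, was at 1.13 from 1 probe, and its relative PAQR8 at 0.16. The paralog PGRMC2 was at 0.86 from 4 probes between 0.79 and 0.96, which is 1.25 below PGRMC1. On the other side were EGFR (-0.90), POR (-0.84), the reductase that feeds electrons to cytochromes P450, and INSIG2 (-0.42). Of the genes in these lists, PKIG and CYB5A were nearest to PGRMC1 in log2 difference, 0.03 and 0.25 away.

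Other membrane receptors for hormones passed 2-fold about as often as named genes did in general. Of 53 listed, 30 had a value, 15 higher on each array, with a median log2 difference of 0.02, and 20.0% were past 2-fold in either direction, against 19.7% of all named genes. On the pig array the highest were OXTR (4.81, 1 probe), the oxytocin receptor, PTGFR (2.48, 1 probe), the receptor for prostaglandin F2 alpha, and IL6ST (1.66), a shared cytokine receptor chain. On the minipig array they were KIT (-2.04, 3 probes from -2.16 to -1.80), the stem cell factor receptor of oocytes and theca cells, TGFBR3 (-1.31, 1 probe), a coreceptor for inhibin, and TSHR, the thyrotropin receptor and closest relative of FSHR and LHCGR. In the conventional pig TSHR did not stand well above background, and its difference is a bound of at least 2.41-fold. FSHR thus had a larger difference toward the minipig array than any of these 30, although that of TSHR, being a bound, may be larger than its value. Among the genes nearest to LHCGR in log2 difference was ACVR2B, at -0.63, and nearest to PRLR were PTGER3 (-0.56) and GHRHR (-0.53).

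The hormones that bind FSHR, LHCGR, PRLR and GHR come from the pituitary, and the pituitary hormone genes listed were dim or level. CGA, the common alpha subunit of the gonadotropins, had a log2 difference of -0.07, LHB of -0.02 from 2 probes at -0.40 and 0.35, and FSHB of 0.60 from 1 probe. For PRL, 1 of 4 probes was well above background on both arrays, and the median of 1 measured difference and 1 bound was -0.68. GH1 and TSHB were named on the array but had no value. POMC, another pituitary hormone gene, was at -0.21. None of the 5 genes with a value in this group reached 2-fold.

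The choice of scaling moved the median of all probes by up to 0.15 log2 units toward the pig array, and it left the order of the members intact at both ends. Several alternatives cannot move a gene of 1 bright probe, so values are counted only where they differ from the reported one and from each other. FSHR ran from -3.67 to -2.63 over 7 such values and PGRMC1 from 1.79 to 2.33 over 8, all past 2-fold in the reported direction. Among these the deposited table was read with the breed labels of the scanner files, so it cannot bear on the direction. LHCGR ran from -0.92 to -0.47 over 8 and PRLR from -0.59 to -0.13 over 7, with the same sign and within 2-fold throughout. GHR ran from -0.07 to 0.19 over 8, of which 2 had the other sign.

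**Figure D4:**
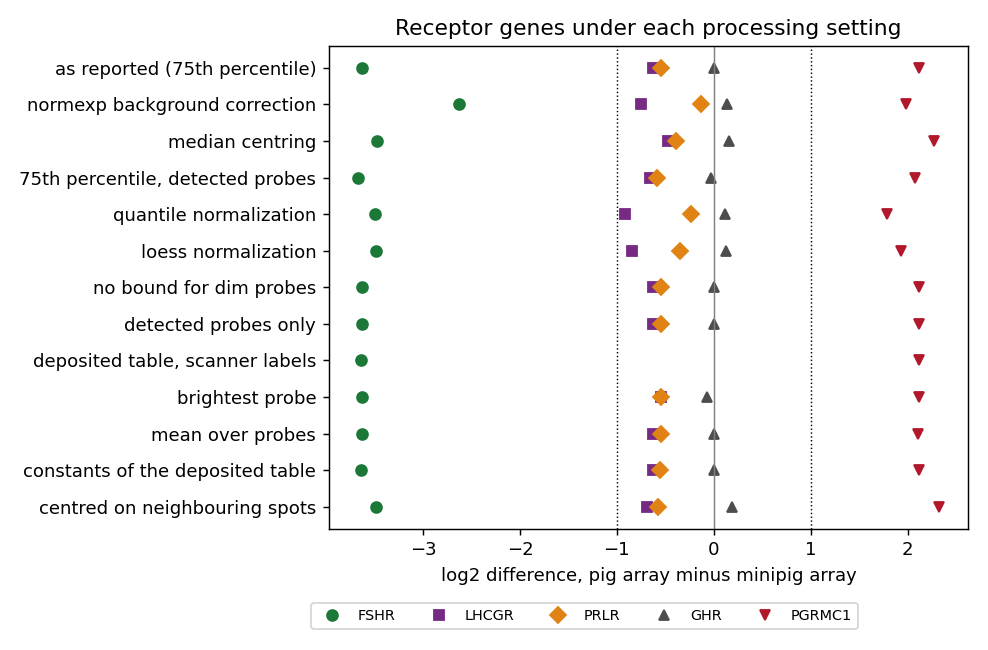
Log2 difference of each receptor gene as reported and under each alternative processing, 1 row per setting, with 2-fold as dotted lines. FSHR stays at or left of -2.63 and PGRMC1 at or right of 1.79 in every row, and LHCGR, PRLR and GHR stay between -1 and 1. The row of the deposited table holds FSHR and PGRMC1 only, with the breeds as the scanner files label them.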

How the data were processed

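RNA of each breed's ovarian tissue was labelled with Cy3 and hybridised to 1 array. Both arrays, on the same slide, were scanned and read with Agilent Feature Extraction 10.7.3.1. That program gave each spot an intensity corrected for background and spatial trend, its error and a flag that marks signals well above background. These intensities were deposited without normalization between arrays. The deposited log2 table of 5617 probes holds the log2 intensity minus 1 constant per array. The methods name GeneSpring, whose settings are not given in the sources used here.

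Control and outlier spots were left out, repeated spots were averaged as log2, and the 75th percentile was subtracted. Of 43597 probes, 88.1% on the minipig and 85.2% on the pig array were well above background, and accessions named 5577 (12.8%). The array's build is not given, so no coordinates are printed. A gene's value is the median of its probes. A probe well above background on 1 array gave a bound against the lowest such intensity on the other. Where that bound pointed away from the brighter array, the probe had no value. The number of arrays limits the precision. Spot SDs were 0.20 and 0.15 (log2) over 42 probes printed several times.

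Members and lists were chosen with earlier results of these data known. Named genes were the members, the 2 genes of the pathway lists nearest to each in difference (only those with every probe well above background on both arrays), all pituitary hormones, and up to 3 listed genes furthest each way past 2-fold with all probes in 1 direction, and markers that give a list's range. Other genes were chosen after their values were seen, and 1 gene that this rule names is not reported here. Alternatives were normexp (offset 50, on median signals), other scalings, filters on dim probes, the deposited table under the scanner files' labels and other probe summaries. Python 3.11.15, numpy 2.4.6, pandas 2.3.3, statsmodels 0.14.6 (loess, span 0.3), R 4.3.3 and limma 3.58.1 (normexp) were used, and the steps were tested on simulated data.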

Additional observations from a re-analysis of the deposited data

How the results depend on the processing

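Normexp background correction took FSHR from -3.63 to -2.63 and PRLR from -0.55 to -0.13, and it lowered the share of probes past 2-fold from 16.4% to 8.83%. The brighter members moved less under it, with PGRMC1 at 1.98 and LHCGR at -0.75. Quantile normalization took LHCGR to -0.92, PRLR to -0.24 and PGRMC1 to 1.79. Every other alternative moved each member, and the median of each of 5 pathway lists, by less than the SD between repeated spots. The medians of the marker lists and of the pituitary hormone genes were not recomputed under the alternatives. Of all probes past 2-fold, 54.4% lay toward the minipig array, which became 40.2% with median centring and 41.1% with normexp. The medians of the lists of gonadotropin receptor signalling (-0.21 to 0.12) and of other hormone receptors (-0.06 to 0.17) changed sign under 1 and 2 of 10 alternatives. The constants of the deposited table and the centring on neighbouring spots were chosen after seeing the data. The array files carry no gene names, so naming probes by symbol was not run. No replicate could be left out. No paired analysis was possible because each breed has 1 array.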
